A study of Homo sapiens with 12 samples.

Results

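Culture at 5% O2 was compared with culture at 20% O2 in UBQLN1-/- (KO) human embryonic stem cells (hESCs), across all genes of an RNA-sequencing count table. The members are the 4 KO libraries whose labels give low or normal oxygen and no other treatment, out of 12 samples in the series, with 2 libraries at 5% O2 and 2 at 20% O2. The study deleted UBQLN1, which encodes the ubiquitin receptor ubiquilin 1, with CRISPR/Cas9 in the hESC line WA26 and asked whether less oxidative stress relieves the defects of the KO cells, either with lower oxygen or with the antioxidant NAC (N-acetylcysteine). The same fit held 2 WT libraries at 20% O2 and 2 KO libraries with NAC, so that 8 libraries in 4 groups shared one estimate of the spread. All libraries are of one cell line, and the labels do not say whether the 2 replicates of a group are separate clones or cultures, so the p-values measure only the spread between these libraries. The study's text describes the culture at 5% O2 before RNA sequencing as short in one place and long in another, so its length, and whether it equals that of NAC, is not known from the sources used here. The response of WT cells to 5% O2 was not analysed here, and a like response in WT cannot be told from these values.

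Cells sense oxygen through prolyl hydroxylases (the EGLN enzymes), which mark the alpha subunits of the hypoxia-inducible factors (HIFs) for destruction by the VHL ubiquitin ligase while oxygen is plentiful. When oxygen falls, the alpha subunits persist, pair with ARNT and bind the hypoxia response element of their target genes, whose core reads ACGTG or GCGTG. The targets raise glucose uptake and glycolysis, restrain the entry of pyruvate into mitochondria, remove mitochondria by mitophagy and feed back on the pathway through the EGLN genes.

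Library totals ran from 31236968 to 41639350 counts, with 35019694 and 39349967 in KO at 20% O2 and 41639350 and 32759193 in KO at 5% O2. Levels of genes are given in CPM, counts scaled to a common library size with edgeR's TMM factors. Summed levels of lists are in CPM without those factors. A log2 fold change is KO at 5% O2 minus KO at 20% O2 from edgeR's quasi-likelihood test, with its standard error (SE). Of 28278 genes in the table, 15916 passed the filter on low counts. A gene is called where the Benjamini-Hochberg adjusted p over those genes is under 0.05, and all adjusted p-values given here are of that kind. The pluripotency markers POU5F1, NANOG, SOX2 and LIN28A were at mean levels from 145 to 1412 CPM in KO at 20% O2. Of markers of other lineages, 3 of 10 for endoderm and 5 of 14 for trophoblast and amnion passed the filter. So did 13 of 20 for neuroectoderm, 10 of 15 for mesendoderm and mesoderm and 10 of 16 for fibroblasts and stroma.

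UBQLN1 itself was at 42.3 and 43.5 CPM in KO at 20% O2, at 51.9 and 47.7 CPM at 5% O2, at 62.4 and 49.3 CPM with NAC and at 221 and 197 CPM in WT. Every KO library was below both WT libraries. The change of UBQLN1 between 5% and 20% O2 did not pass the test (log2 fold change 0.22, SE 0.12, adjusted p = 0.283).

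The 3 genes that mark the oxygen response were all higher at 5% O2. DDIT4 (chr10:72273924-72276036, GRCh38.p14), a stress-induced inhibitor of mTORC1, was at 17.3 and 17.4 CPM at 20% O2 and at 186 and 189 CPM at 5% O2. PDK1 (chr2:172555373-172724312), a kinase that turns off pyruvate dehydrogenase, was at 12.3 and 11.5 CPM at 20% O2 and at 103 and 91.8 CPM at 5% O2. PGK1 (chrX:78104248-78129295), the glycolytic phosphoglycerate kinase, was at 532 and 551 CPM at 20% O2 and at 2371 and 2029 CPM at 5% O2. For each of the 3 genes both libraries at 5% O2 were above both at 20% O2. The changes were 10.8-fold for DDIT4 (log2 fold change 3.43, SE 0.71), 8.20-fold for PDK1 (3.04, SE 0.26) and 4.06-fold for PGK1 (2.02, SE 0.15). Their adjusted p-values from edgeR's quasi-likelihood test were 0.019, 1.4e-04 and 4.7e-05. The NAC libraries, which enter the same estimate of the spread, were at 163 and 15.2 CPM for DDIT4. Its call was lost when any 1 of the 4 libraries compared was left out, while the calls of PDK1 and PGK1 held in each case.

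The sequence just before the start of 5 of the genes that rose is shown because each holds the HIF core motif. The windows are the 250 bases before a RefSeq start (GRCh38.p14), 5′ to 3′ on the gene's own strand, with each ACGTG or GCGTG on either strand in capitals, so that the reverse complements CACGT and CACGC are also capitals and neighbouring matches can overlap. They lie at chrX:78103998-78104247 (+) for PGK1, chr11:18394313-18394562 (+) for LDHA, chr2:172555840-172556089 (+) for PDK1, chr10:131981924-131982173 (-) for BNIP3 and chr10:72273674-72273923 (+) for DDIT4. The LDHA and PDK1 windows are each 1 of 2 annotated for the gene, chosen as the window with more matches. The other window, counted to 50 bases after its start, held 1 match for LDHA and none for PDK1.
PGK1: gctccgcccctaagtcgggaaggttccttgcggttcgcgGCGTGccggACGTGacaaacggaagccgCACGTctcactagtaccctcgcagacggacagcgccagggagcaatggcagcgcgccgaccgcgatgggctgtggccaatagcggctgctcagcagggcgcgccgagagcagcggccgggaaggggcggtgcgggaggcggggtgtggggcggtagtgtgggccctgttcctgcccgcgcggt
LDHA: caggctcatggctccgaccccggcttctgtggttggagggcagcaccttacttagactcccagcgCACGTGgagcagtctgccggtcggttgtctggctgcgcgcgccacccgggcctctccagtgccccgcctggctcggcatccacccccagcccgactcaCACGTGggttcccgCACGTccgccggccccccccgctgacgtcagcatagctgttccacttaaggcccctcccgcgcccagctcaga
PDK1: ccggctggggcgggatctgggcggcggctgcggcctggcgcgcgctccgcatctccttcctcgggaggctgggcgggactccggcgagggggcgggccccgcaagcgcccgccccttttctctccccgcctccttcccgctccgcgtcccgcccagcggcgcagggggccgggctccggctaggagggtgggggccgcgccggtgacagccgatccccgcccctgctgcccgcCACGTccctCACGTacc
BNIP3: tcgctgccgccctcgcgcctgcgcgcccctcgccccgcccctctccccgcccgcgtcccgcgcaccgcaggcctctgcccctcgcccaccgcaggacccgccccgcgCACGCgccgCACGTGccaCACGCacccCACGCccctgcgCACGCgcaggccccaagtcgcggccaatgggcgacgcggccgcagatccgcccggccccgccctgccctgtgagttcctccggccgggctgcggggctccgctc
DDIT4: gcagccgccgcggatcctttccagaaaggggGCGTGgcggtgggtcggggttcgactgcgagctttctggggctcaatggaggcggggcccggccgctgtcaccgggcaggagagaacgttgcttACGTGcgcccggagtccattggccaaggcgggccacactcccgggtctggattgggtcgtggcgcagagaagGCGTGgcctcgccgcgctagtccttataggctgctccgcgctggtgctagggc

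The PGK1 window holds 3 matches from 211 to 183 bases before the start. LDHA, which encodes the lactate dehydrogenase subunit that favours lactate, has 5 matches in its window, and 4 of them form 2 palindromes CACGTG in which both strands match. PDK1 has 2 matches, 17 and 8 bases before the start. BNIP3, a mitophagy receptor, has 6 matches between 143 and 104 bases before the start. DDIT4 has 3 matches. Over windows from 250 bases before to 50 after the start, 70.1% of 678 windows of genes called higher held at least 1 match, against 59.2% of 17231 windows of all tested genes and 57.8% of 751 windows of genes called lower. For ACGTG alone the shares were 35%, 24.5% and 20.2%. Among 61 windows of the HIF target list, 77.0% held a match to either form. A gene can have several windows or none. The windows cover 475 of 586 genes called higher, 496 of 657 called lower, 11750 of 15916 tested genes and 41 of 51 HIF targets. Counted by gene, 77.3%, 67.5%, 68.9% and 87.8% of those with a window held a match to either form. EGLN3, which also rose, had no match in its window, and SLC2A1, with one of the clearest changes, had 1. These shares are a description, since a match of 5 bases is common and the mean GC content of the windows ran from 62.8% for genes called higher to 67.6% for genes called lower.

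Across all genes, 1243 were called (7.81% of those tested), 586 higher (3.68%) and 657 lower (4.13%). Both libraries at 5% O2 were above both at 20% O2 for 30.7% of tested genes and below for 30.3%, so a lack of overlap with 2 libraries a group is common. Leaving out any 1 of the 4 libraries left from 29 to 238 genes called higher and from 5 to 275 lower. Among the lists described here, calls that held in all 4 of those fits were found for HIF subunits and sensors, HIF targets, glycolysis and its control, collagen hydroxylases, mitophagy, lipid handling, secreted factors and transcription regulators, and no call of any other list held in all 4. Among calls with a log2 fold change beyond 1, 64 genes were higher and 41 lower. By a log2 fold change over 1 with an unadjusted p under 0.05, the criteria of the study, 129 genes were higher (0.811%) and 192 lower (1.21%). The split between directions moved with transcript composition. When each library was first corrected for a smooth trend with the GC content and length of transcripts (called below the removal of the trend), 260 genes were called higher (1.63%) and 54 lower (0.339%). The values without that trend are therefore given beside the results it touches in the comparison of 5% with 20% O2.

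**Figure D1:**
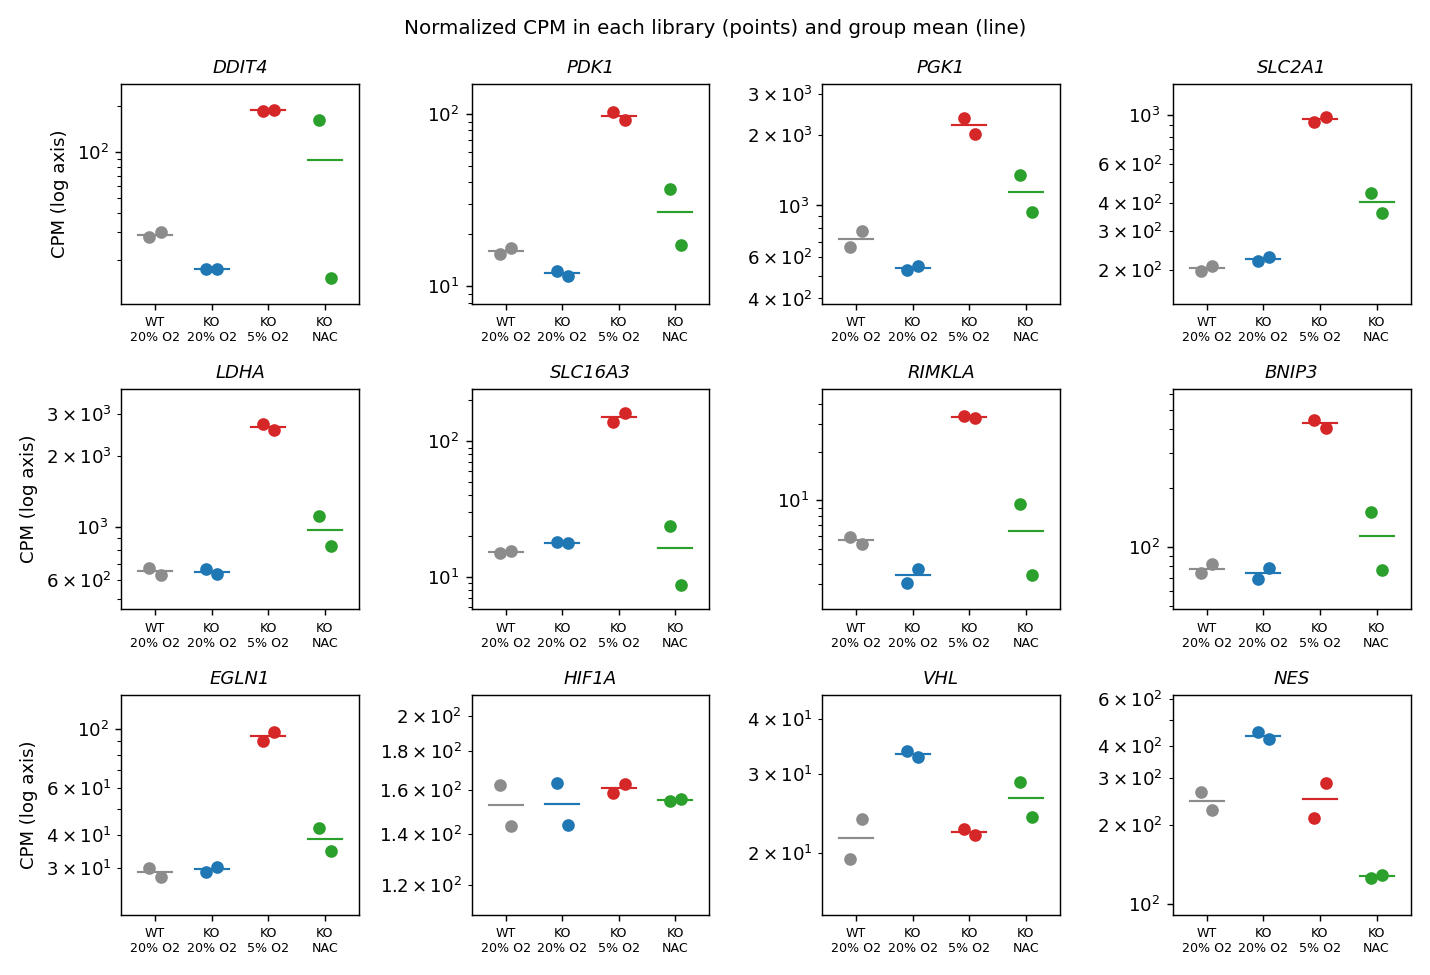
Normalized CPM (log axis) of 12 genes in the 8 libraries, with each point a library and each line a group mean. For the 9 genes from DDIT4 to EGLN1 both KO libraries at 5% O2 lie above both at 20% O2, HIF1A overlaps between them, and VHL and NES lie lower at 5% O2.

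The largest increases by the naming rule were DDIT4, RIMKLA, SLC16A3, PDK1, BNIP3, SLC2A1, LDHA, PPP1R3C, PGK1 and PFKFB4. RIMKLA, an enzyme that joins N-acetylaspartate to glutamate, was at 3.06 and 3.74 CPM at 20% O2 and at 33.6 and 32.4 CPM at 5% O2, a 9.69-fold change (log2 fold change 3.28, SE 0.35, adjusted p = 6.2e-04 by edgeR's quasi-likelihood test). SLC16A3, the MCT4 transporter that exports lactate, was at 18.1 and 17.8 CPM at 20% O2 and at 140 and 161 CPM at 5% O2, an 8.39-fold change (3.07, SE 0.31). BNIP3 was at 68.9 and 78.3 CPM at 20% O2 and at 446 and 405 CPM at 5% O2, a 5.78-fold change (2.53, SE 0.23). None of these genes overlapped between the groups. SLC2A1, the glucose transporter GLUT1, went from 218 and 228 CPM to 933 and 985 CPM and had the smallest adjusted p of the 10, at 3.1e-06 (log2 fold change 2.10, SE 0.10, edgeR's quasi-likelihood test). All 10 genes stayed called with the length and GC trend removed, at log2 fold changes from 1.84 for LDHA to 3.52 for RIMKLA. All but DDIT4 and PPP1R3C were also called whichever of the 4 libraries was left out.

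Of the 51 tested HIF targets on the list, 28 were called higher and none lower, against 3.68% of all tested genes called higher. Members of this and the other lists were chosen with earlier results of these data known, so such shares are a description. Their median log2 fold change was 1.01, and -2e-04 over all tested genes. With the trend removed the list kept 28 calls and a median of 0.99. The summed level of the list was 2955 and 2933 CPM at 20% O2 and 5733 and 5779 CPM at 5% O2. With NAC it was 4118 and 3308 CPM. FAM162A (log2 fold change 1.57, SE 0.10), TMEM45A (1.38, SE 0.16) and ANKZF1 (0.79, SE 0.15) were among the called targets outside metabolism. TMEM45A and ANKZF1 were named after their values were seen, as were the next 3 genes, textbook targets that did not pass. VEGFA, the vascular growth factor, had a log2 fold change of 0.39 (SE 0.13, adjusted p = 0.094 by edgeR's quasi-likelihood test), with means of 22.6 ± 0.84 and 29.6 ± 1.19 CPM (SD, n = 2). CA9, a carbonic anhydrase, was near the floor at 0.59 ± 0.30 and 0.82 ± 0.12 CPM. ANKRD37 had 2.05 (SE 0.59, adjusted p = 0.057). When 1 of the 4 libraries was left out, from 16 to 22 of the 28 called targets were called, and 16 were called in every such fit.

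Transcripts of glycolytic enzymes rose at every step of the pathway from glucose to lactate. Of 19 tested, 13 were called higher and none lower, against 3.68% of all tested genes called higher. All 19 had a positive log2 fold change, and the median was 0.52. The summed level of the list went from 14290 and 14410 CPM to 24200 and 24280 CPM. With the trend removed 12 were called and the median was 0.66. LDHA went from 665 and 634 CPM to 2736 and 2571 CPM (log2 fold change 2.03, SE 0.12). ENO1, enolase, went from 2517 and 2608 CPM to 4793 and 4919 CPM (0.92, SE 0.08). PGAM1, phosphoglycerate mutase, went from 961 and 993 CPM to 1801 and 1775 CPM (0.87, SE 0.08). In none of the 3 did the groups overlap. TPI1 (0.75, SE 0.08), PKM (1.22, SE 0.16), GPI (0.52, SE 0.10) and GAPDH (0.49, SE 0.07), which serve the steps from glucose 6-phosphate to pyruvate, were also called, the last 3 named after their values were seen. Without 1 of the 4 libraries, from 6 to 9 of the 13 were called. Counts of such families with many processed copies in the genome can lose reads that match several places.

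Glucose entry, its control and lactate export rose through selected members. Of 20 tested genes of glycolytic control and transport, 8 were called higher and none lower, and the median was 0.17. Of all tested genes 3.68% were called higher. PFKFB3 and PFKFB4, which make and break down fructose 2,6-bisphosphate, the activator of phosphofructokinase, went from 57.6 and 58.0 CPM to 187 and 207 CPM (log2 fold change 1.77, SE 0.12) and from 13.4 and 16 CPM to 57.8 and 60.0 CPM (2.0, SE 0.13). Neither gene overlapped between the groups. Genes of glycogen handling included 4 called higher of 21 tested. They were PPP1R3C, a scaffold that promotes glycogen synthesis (2.03, SE 0.33), the branching enzyme GBE1 (1.51, SE 0.20), and the phosphoglucomutases PGM1 (1.14, SE 0.16) and PGM2 (0.61, SE 0.10). Without 1 of the 4 libraries, from 0 to 4 of them were called.

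In several families the estimates for paralogs differed in size, while in others they lay close, as for P4HA1 (1.57) and P4HA2 (1.58). SLC2A1 had a log2 fold change of 2.10 (SE 0.10) and SLC2A3, GLUT3, one of 0.75 (SE 0.11). HK2 was called (0.87, SE 0.12) and HK1 was not (0.17, SE 0.11, adjusted p = 0.383 by edgeR's quasi-likelihood test). Among the phosphofructokinase subunits, PFKP (0.45) and PFKL (0.35) were called, and PFKM had 0.09 (SE 0.09). ALDOC rose by 1.15 (SE 0.12), while ALDOA had 0.36 (SE 0.16). The level of ALDOA was only 12.5 to 18.7 CPM in the 4 libraries, and counts of overlapping annotated genes are lost by the authors' counting, so its value is uncertain. ENO1 was called, ENO2 had 0.21 (SE 0.09) and ENO3 had 0.21 (SE 0.25). LDHA rose by 2.03 and LDHB, the subunit that favours pyruvate, by 0.35 (SE 0.09), a call lost with the trend removed (0.11).

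For lactate transport, SLC16A3 rose by 3.07 and SLC16A1, MCT1, had 0.17 (SE 0.08, adjusted p = 0.221 by edgeR's quasi-likelihood test). PDK1 rose by 3.04 and PDK3 by 0.43 (SE 0.10), and PDK2 had -0.43 (SE 0.17, adjusted p = 0.138). The call of PDK3 was lost with the trend removed (0.26). PFKFB2 had -0.06 (SE 0.14) beside the changes of PFKFB3 and PFKFB4 near 2. NDUFA4L2, a HIF-induced form of the respiratory subunit NDUFA4, was at most at 0.79 CPM in the 4 libraries, and NDUFA4 had 0.20 (SE 0.12). The difference between paralogs was not tested.

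**Figure D2:**
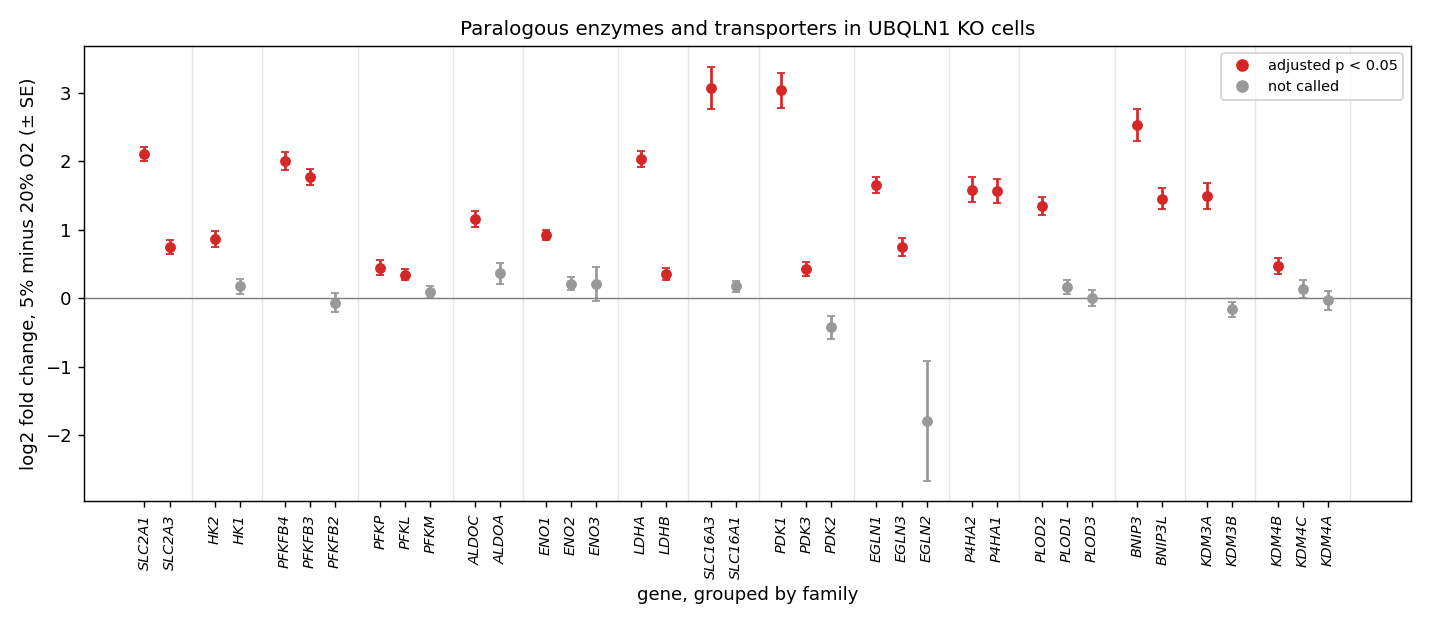
Log2 fold change at 5% minus 20% O2 in KO cells, with bars for the SE of the fit, for paralogs grouped by family. Red points passed an adjusted p under 0.05. SLC16A3 and PDK1 stand near 3 while SLC16A1 is at 0.17 and PDK2 at -0.43, and EGLN2 has a wide bar.

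In the oxygen sensing machinery, EGLN1, EGLN3 and RBX1 were called higher and VHL lower. These were 4 of 19 tested HIF subunits and sensors, against 7.81% of all tested genes called in either direction, and the median log2 fold change of the list was 0.01. EGLN1, the main HIF prolyl hydroxylase, was at 29.2 and 30.4 CPM at 20% O2 and at 90.7 and 97.5 CPM at 5% O2 (log2 fold change 1.66, SE 0.11). EGLN3 was at 17.1 and 20.5 CPM and at 31.9 and 31.3 CPM (0.75, SE 0.13). VHL, the substrate receptor of the HIF ubiquitin ligase, was at 33.9 and 32.8 CPM at 20% O2 and at 22.5 and 21.8 CPM at 5% O2 (-0.59, SE 0.13). These groups did not overlap. The adjusted p of VHL was 0.025 in edgeR's quasi-likelihood test and 0.054 with the trend removed. RBX1, the RING subunit of that ligase, was called at 0.50 (SE 0.11), a call lost with the trend removed (0.31). Of the 4, EGLN1 alone was called in each fit without 1 of the libraries compared.

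Transcripts of the HIF subunits themselves did not pass the test. HIF1A was at 163 and 144 CPM at 20% O2 and at 159 and 163 CPM at 5% O2 (log2 fold change 0.07, SE 0.09), and the groups overlapped. EPAS1, which encodes HIF-2 alpha, had -0.41 (SE 0.29) and ARNT had -0.03 (SE 0.12). Adjusted p-values of the 3 genes in edgeR's quasi-likelihood test ran from 0.408 to 0.914. EGLN2 was at most at 0.46 CPM in the 4 libraries and its log2 fold change of -1.79 had an SE of 0.87. Counts of overlapping annotated genes are lost by the authors' counting, so this low level is uncertain. RNA levels say nothing of HIF protein, which was not measured here.

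Other enzymes that use oxygen as a substrate included strong increases. Of 18 tested collagen hydroxylases and lysyl oxidases, 4 were called higher and none lower, against 3.68% of all tested genes called higher. P4HA1 and P4HA2, catalytic subunits of collagen prolyl hydroxylase, rose by 1.57 (SE 0.17) and 1.58 (SE 0.18), and the lysyl hydroxylase PLOD2 by 1.34 (SE 0.13). PLOD1 had 0.17 (SE 0.10) and PLOD3 had a value within 0.01 of 0 (SE 0.11). P3H2 was called at 0.59 (SE 0.16) and lost its call with the trend removed. Of 36 tested collagen genes none was called higher and 2 were called lower, where 4.13% of all tested genes were called lower. They were COL24A1 (-2.55, SE 0.59) and COL23A1 (-0.73, SE 0.19), and both calls were lost with the trend removed. The collagen list had a median of -0.22, or 0.05 after that correction.

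Of 21 tested JmjC histone demethylases, 3 were called higher and 1 lower, against 3.68% and 4.13% of all tested genes. KDM3A, which removes methyl groups from histone H3, went from 30.9 and 26.9 CPM to 81.3 CPM in both libraries (log2 fold change 1.5, SE 0.19), and KDM3B had -0.16 (SE 0.10). KDM4B rose by 0.47 (SE 0.12) and KDM7A by 0.50 (SE 0.12), while KDM4A had -0.03 (SE 0.14) and KDM4C had 0.14 (SE 0.13). PHF2 fell by 0.49 (SE 0.12). Of 7 genes of DNA methylation, 3 were called lower and none higher. They were UHRF1 (-0.46), DNMT1 (-0.38) and TET3 (-0.41), each with an SE of at most 0.11. None of PHF2, UHRF1, DNMT1 and TET3 was called with the trend removed.

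Of 18 tested mitophagy genes 2 were called higher and 1 lower, and of 13 brakes on mTORC1 DDIT4 was called higher and TSC1 lower, where 7.81% of all tested genes were called. BNIP3 and its relative BNIP3L, both receptors that mark mitochondria for removal, rose, the latter from 36.0 and 39.0 CPM to 107 and 98.7 CPM (log2 fold change 1.45, SE 0.15). ULK1, the kinase that starts autophagy, was called lower (-0.52, SE 0.10), as was TSC1 of the mTORC1 inhibitory complex (-0.50, SE 0.12), and neither was called with the trend removed. Of 20 genes on the list of hypoxia-linked transcription regulators 5 were called higher. They were the clock repressors BHLHE40 (2.0, SE 0.22) and BHLHE41 (2.40, SE 0.42), with HES1 (0.67), ZNF395 (0.49) and WSB1 (0.39). WSB1 encodes a ubiquitin ligase subunit and is not itself a transcription regulator. Among 21 secreted and vascular factors STC1, stanniocalcin (1.95, SE 0.25), ADM, adrenomedullin (1.01, SE 0.09), and the receptor CXCR4 (1.59, SE 0.35) were called higher. PDGFA (-0.45, SE 0.11) and ADM2 (-0.91, SE 0.21) were called lower. CXCR4, PDGFA, ADM2 and WSB1 were not called with the trend removed.

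**Figure D3:**
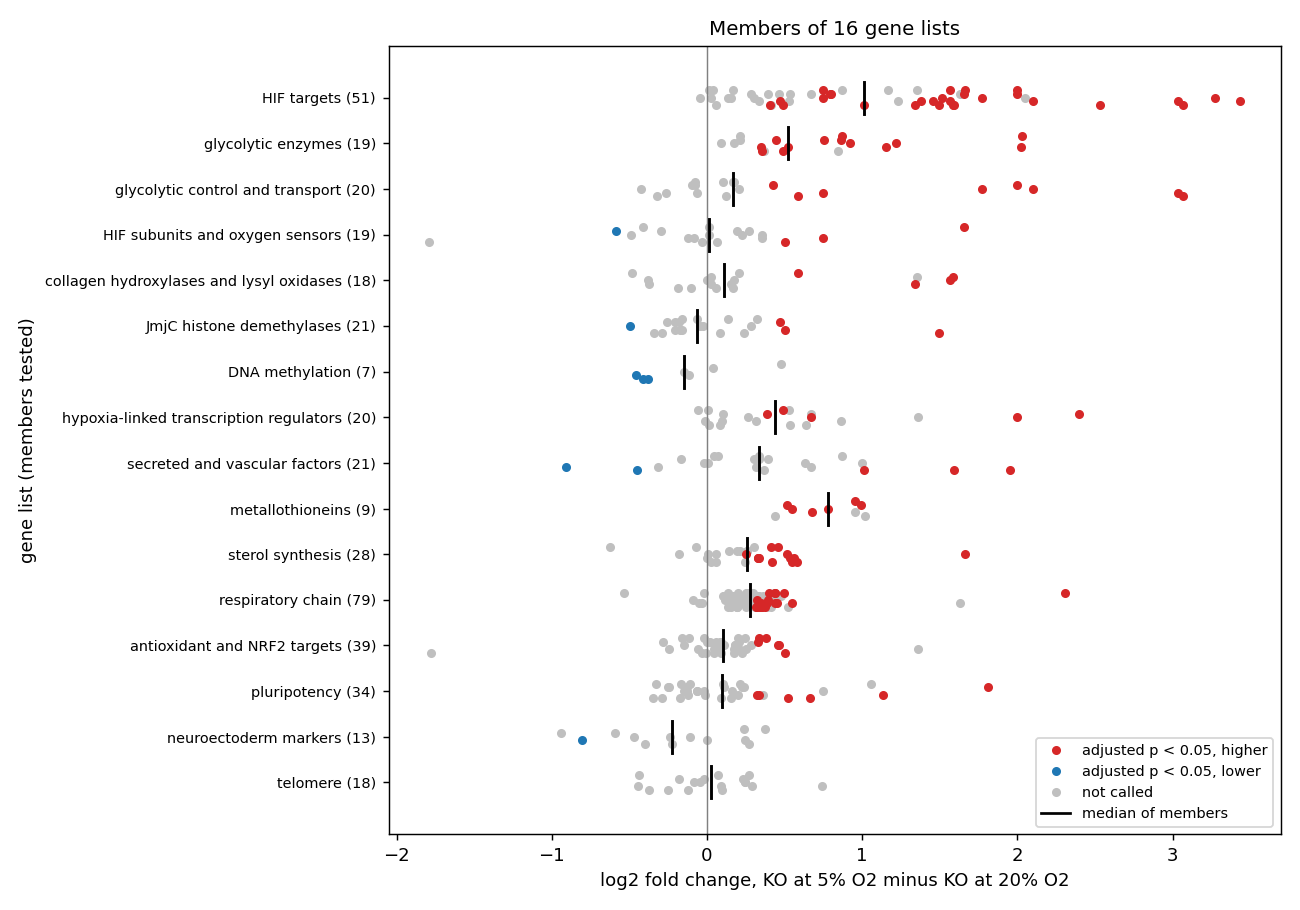
Log2 fold change at 5% minus 20% O2 in KO cells for the tested members of 16 gene lists, 1 point a gene, with the number tested in brackets and the median as a black line. Called genes are red (higher) or blue (lower). HIF targets have a median of 1.01 and metallothioneins of 0.78, while the telomere list holds no called gene.

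Lipid and sterol genes rose at several points. In lipid handling, 5 of 27 tested genes were called higher and 1 lower, against 3.68% and 4.13% of all tested genes. HILPDA, which blocks lipid breakdown in droplets, rose by 0.80 (SE 0.11), the droplet coat gene PLIN2 by 0.44 (SE 0.10), and ACSL4, SCD and FADS1 by 0.28 to 0.43. PLIN2 and ACSL4 lost their calls with the trend removed. CPT1A, which admits fatty acids to mitochondria for oxidation, was at 61.4 and 62.6 CPM at 20% O2 and at 36.3 and 32.3 CPM at 5% O2, with no overlap. Its log2 fold change was -0.85 (SE 0.10, adjusted p = 0.0015 by edgeR's quasi-likelihood test), and it stayed called with the trend removed (-0.70). Of 28 sterol genes 13 were called higher and none lower, with a median of 0.26. INSIG2, a brake on sterol synthesis, rose by 1.66 (SE 0.22). The synthesis genes SC5D (0.53, SE 0.09), IDI1 (0.58, SE 0.10) and MSMO1 (0.55, SE 0.08) and the sterol carrier STARD4 (0.56, SE 0.11) also rose. With the trend removed 8 sterol genes were called, and without 1 of the 4 libraries from 0 to 8 of the 13.

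Smaller increases ran through genes of mitochondria and protein turnover, and these shrank with the trend removed. Of 79 nuclear genes of the respiratory chain, 18 were called higher and none lower, and their median was 0.28. Over all tested genes 3.68% were called higher. With the trend removed 5 were called and the median was 0.14. ATP5F1A (0.36, SE 0.08), ATP5F1B (0.45, SE 0.09) and NDUFA9 (0.44, SE 0.10) stayed called, and COX7C, NDUFS4, NDUFB5 and COX4I1 did not. Of 85 cytosolic ribosomal protein genes 39 were called higher and none lower (median 0.32), and 10 were called higher and 1 lower with the trend removed. RPSA (0.57, SE 0.10), RPS4X (0.46, SE 0.08) and RPS27 (0.50, SE 0.09) stayed called, and RPS24, RPL10A and RPS26 did not. Without 1 of the 4 libraries, from 0 to 4 of the 18 respiratory chain genes and from 0 to 15 of the 39 ribosomal protein genes were called.

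The mitochondrial ribosome had 6 called higher of 77, namely MRPL13, MRPS35, MRPS36, MRPS6, MRPL3 and MRPL39, at log2 fold changes from 0.32 to 0.63, and none of the 6 stayed called with the trend removed. The proteasome had 9 of 43, among them PSMD10 (0.57), PSMC6 (0.51), PSMB1 (0.42), PSMA1 (0.40), PSMA6 (0.35) and PSMA2 (0.35), and 0 with the trend removed. Of 39 antioxidant genes and NRF2 targets 6 were called higher and none lower. They were MGST1 (0.46), PRDX1 (0.46), PRDX4 (0.50), PRDX3 (0.38), PRDX2 (0.33) and TXN (0.34), of the peroxiredoxin and thioredoxin systems in all but the first. With the trend removed none of the list was called, and TXN had -0.10. In the tricarboxylic acid cycle and pyruvate entry, PDHB (0.35, SE 0.10) was the 1 call among 33, where 3.68% of all tested genes were called higher. It was lost with the trend removed (0.14) and in every fit without 1 of the 4 libraries.

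Stress lists held from 0 to 2 calls each, where 3.68% of all tested genes were called higher. Among 37 ATF4 targets PSAT1 (0.39, SE 0.08) was the 1 call, among 23 genes of the endoplasmic reticulum unfolded protein response PDIA3 (0.29) and HSP90B1 (0.33) were called, and among 15 heat shock genes HSPE1 (0.53) and HSPA8 (0.39). None of the 5 stayed called with the trend removed, or in every fit without 1 of the 4 libraries. None of 22 p53 targets was called in either direction in edgeR's quasi-likelihood test. There 6 had an unadjusted p under 0.05, but the share of all genes under that limit is not given here, so the 6 cannot be weighed. DESeq2 called 3 of them, beside 1081 higher and 1063 lower of the 15916 tested genes. For iron, TFRC, the transferrin receptor (0.41, SE 0.09), and NCOA4 (0.38, SE 0.10) were called higher of 21. NCOA4 lost its call with the trend removed. The early response genes CCN1 (0.46), CCN2 (0.58) and DUSP4 (0.41) were the 3 calls of 22.

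Most tested metallothioneins, which bind zinc and copper, rose. Of 9 tested, 6 were called higher and none lower, against 3.68% of all tested genes called higher. Their median log2 fold change was 0.78, and all 9 were positive. MT1G was at 62.7 and 60.8 CPM at 20% O2 and at 120 and 126 CPM at 5% O2 (0.99, SE 0.14). MT1X went from 102 and 131 CPM to 206 and 193 CPM (0.78, SE 0.11). MT1H (0.95), MT1E (0.68), MT1F (0.55) and MT2A (0.52) were also called, and MT1G, MT1X and MT1F stayed called with the trend removed. Without 1 of the 4 libraries, from 0 to 3 of the 6 were called. The summed level of the list was 376 and 433 CPM in KO at 20% O2, 612 and 624 CPM at 5% O2, and 633 and 593 CPM in WT. These genes lie close in sequence, so reads that match several of them can be lost.

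The core markers of the stem cell state were not called. POU5F1 (log2 fold change 0.10, SE 0.18), NANOG (0.09, SE 0.09), SOX2 (-0.13, SE 0.10), LIN28A (-0.18, SE 0.16), TDGF1 (0.24, SE 0.07) and DPPA4 (0.21, SE 0.08) did not pass the test, with adjusted p-values from 0.072 to 0.780 in edgeR's quasi-likelihood test. Of 34 pluripotency genes 6 were called higher and none lower, against 3.68% and 4.13% of all tested genes. NODAL, the growth factor of the pathway that sustains pluripotency, went from 11.8 and 10.7 CPM to 27.6 and 21.6 CPM (1.13, SE 0.18), and its feedback inhibitor LEFTY1 went from 3.55 and 3.33 CPM to 12.9 and 11.2 CPM (1.81, SE 0.23). Neither overlapped between the groups, and both stayed called with the trend removed. Without 1 of the 4 libraries their adjusted p-values by edgeR's quasi-likelihood test reached 0.165 and 0.072, so that neither call held in every fit. EPCAM (0.52), GDF3 (0.66), ZFP42 (0.34) and ESRG (0.32) were the other calls, and ESRG alone of these stayed called with the trend removed.

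In the neuroectoderm list 1 of 13 tested genes was called, NES, the intermediate filament nestin, where 7.81% of all tested genes were called. NES was at 266 and 226 CPM in WT, at 451 and 422 CPM in KO at 20% O2 and at 212 and 287 CPM in KO at 5% O2. In KO with NAC it was at 126 and 129 CPM. It was lower at 5% O2 with no overlap (log2 fold change -0.81, SE 0.13), and its adjusted p was 0.0081 in edgeR's quasi-likelihood test and 0.053 with the trend removed. SOX1 had -0.94 (SE 0.37, adjusted p = 0.138). The median log2 fold change of the list was -0.22. With the trend removed it was -0.14, with 0 genes called lower and 1 called higher. The summed neuroectoderm level was 1497 and 1522 CPM at 20% O2 and 1150 and 1249 CPM at 5% O2. That sum is over all 20 genes of the list without the TMM factors, which would narrow the gap. KDR, a mesodermal receptor, was called lower (-0.40, SE 0.10) among 10 mesendoderm and mesoderm markers, where 4.13% of all tested genes were called lower. It was not called with the trend removed. No endoderm, trophoblast or fibroblast marker was called among 3, 5 and 10 tested in edgeR's quasi-likelihood test. There 1, 0 and 2 had an unadjusted p under 0.05, but the share of all genes under that limit is not given here. DESeq2 called 0, 0 and 2, beside 1081 higher and 1063 lower of the 15916 tested genes. In bulk RNA fewer cells of a type and less RNA per cell cannot be told apart.

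Cell cycle genes had modest changes. Beside the counts below, 3.68% of all tested genes were called higher and 4.13% lower. Of 37 genes of replication licensing and the fork 6 were called higher and none lower, among them PCNA (0.42), PRIM1 (0.47), RPA3 (0.38), RRM2 (0.37), CDC6 (0.32) and RPA1 (0.31), and CDC6 and RPA1 stayed called with the trend removed. Of 28 mitotic genes 5 were called higher, HMMR (0.70), CCNB2 (0.46), CCNA2 (0.43), CCNB1 (0.32) and KIF20A (0.35), and 1 lower, the proliferation marker MKI67 (-0.82, SE 0.15). None of the 6 stayed called with the trend removed. Of 18 tested telomere genes none was called in edgeR's quasi-likelihood test. There 5 had an unadjusted p under 0.05, but the share of all genes under that limit is not given here, so the 5 cannot be weighed. DESeq2 called 3 of them, beside 1081 higher and 1063 lower of the 15916 tested genes. Named after their values were seen, TERT, the catalytic subunit of telomerase, had -0.25 (SE 0.18) and the shelterin gene TERF1 had 0.25 (SE 0.16). Among imprinted genes MEST (0.40) and NNAT (0.33) were called higher of 15, and neither with the trend removed.

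The largest decreases by the naming rule included CSNK1E, LOC645752, ZNF469, LINC01000, PI4KAP1, BEGAIN, HMCN2, TMEFF1 and PLXNA2, at log2 fold changes from -3.80 to -1.14. TMEFF1 was at 30.6 and 39.4 CPM at 20% O2 and at 14.1 and 17.8 CPM at 5% O2 (-1.14, SE 0.16), and at 14.9 and 15.8 CPM with NAC. LOC645752 was at 6.12 and 4.30 CPM and at 1.42 and 1.5 CPM (-1.83, SE 0.31), and at 1.88 and 1.24 CPM with NAC. CSNK1E was at 4.85 and 4.13 CPM and at 0.02 (1 count) and 0.65 CPM (-3.80, SE 0.70), and at 0.08 and 0.07 CPM with NAC. These 3 genes did not overlap between the groups and stayed called with the trend removed. Each lost its call in at least 1 fit without 1 of the 4 libraries, and in those fits CSNK1E ranged from -7.33 to -2.77. CSNK1E and TMEFF1 share exons with annotated readthrough genes, with which the authors' counting does not share reads, so their values are uncertain. The others named did not stay called, and among them ZNF469 moved from -1.41 to -0.80 and HMCN2 from -1.19 to -0.59. With NAC against KO at 20% O2, ZNF469 (-1.49), BEGAIN (-1.28) and PLXNA2 (-1.28) were also lower past the test. LINC01000 (-0.37), PI4KAP1 (-0.05) and HMCN2 (-0.31) did not pass there. Over all calls, 179 of 586 genes called higher (30.5%) and 52 of 657 called lower (7.91%) were also called in the same direction with the trend removed, and 50 of the 64 calls above a log2 fold change of 1.

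Composition moved with the direction of change over all genes. The median log2 fold change was 0.16 in the quintile of genes with the lowest GC content and -0.19 in the quintile with the highest, and 215 and 23 genes of these quintiles were called higher. By transcript length the medians were 0.12 in the shortest quintile and -0.15 in the longest. Without the trend the medians of all quintiles lay between -0.01 and 0.03. Over 15023 genes the log2 fold change had a Spearman's rho of -0.34 with GC content and -0.25 with length, which describes genes of the same libraries and not replicates. By chromosome the medians ran from -0.10 on chromosome 22 to 0.07 on chromosome 13, and with the trend removed from -0.01 to 0.04. What sets the trend was not tested.

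**Figure D4:**
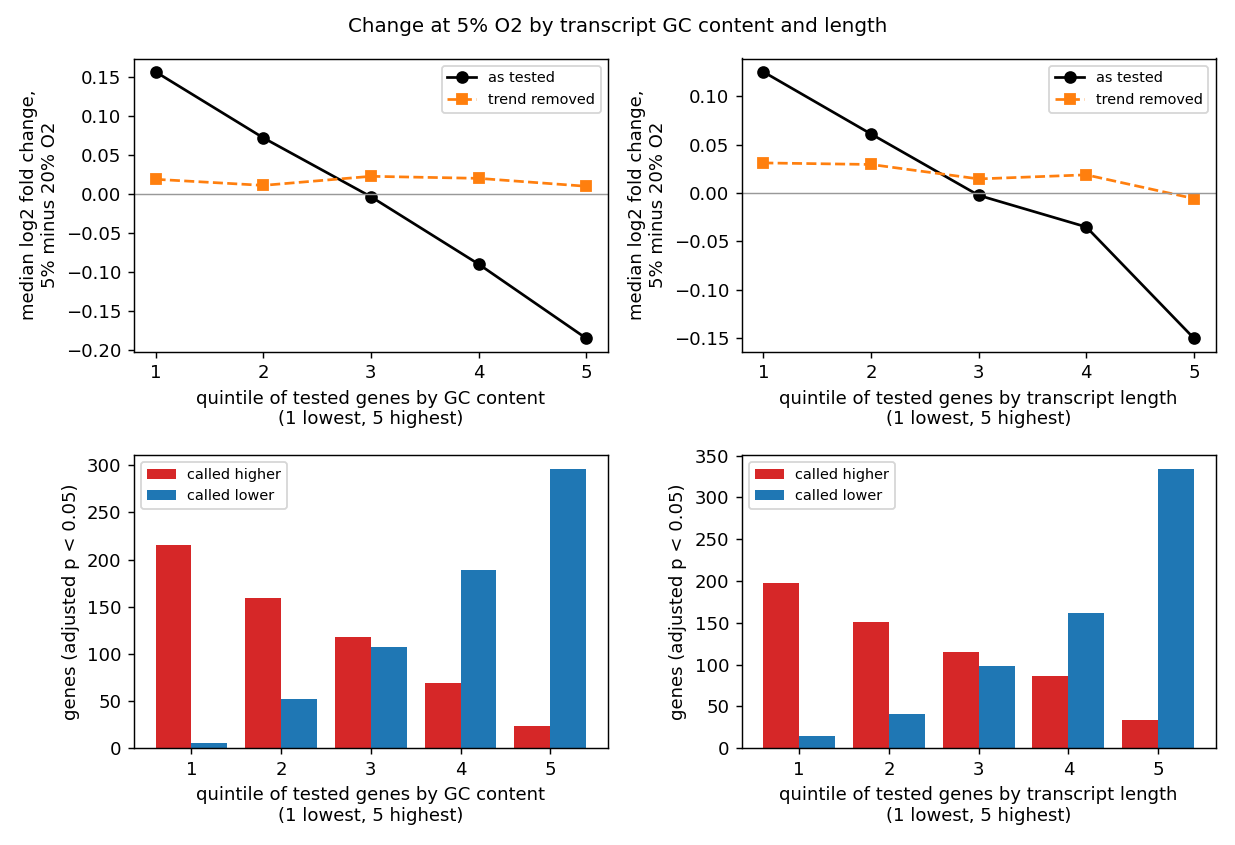
Median log2 fold change at 5% minus 20% O2 (top) and number of called genes (bottom) in quintiles of the tested genes by transcript GC content (left) and length (right), from lowest to highest. As tested, the median falls from 0.16 to -0.19 with GC content, and with the trend removed it stays near 0.

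KO cells at 5% O2 were also compared with KO cells given NAC, a comparison that shares its 5% O2 libraries with the one above and its estimate of the spread with all 8 libraries. Here 4635 genes differed (29.1% of those tested), and 2166 were higher at 5% O2 (13.6%) and 2469 lower (15.5%). With the trend removed 2501 genes differed. SLC16A3 was at 23.9 and 8.72 CPM with NAC, 3.19 lower on the log2 scale than at 5% O2 (SE 0.32). PFKFB4 was at 15.0 and 13.5 CPM (2.05 higher at 5% O2, SE 0.13), PFKFB3 at 53.6 and 41.9 CPM (2.04 higher) and BHLHE40 at 6.81 and 4.04 CPM (2.13 higher). For all 4 genes the NAC libraries were below both libraries at 5% O2. Their log2 fold changes with NAC against KO at 20% O2 were -0.12, -0.05, -0.27 and -0.14, none past the test. PDK1, LDHA, EGLN1, SLC2A1, BNIP3 and PGK1 were higher at 5% O2 than with NAC by 1.85, 1.44, 1.28, 1.25, 1.90 and 0.94 on the log2 scale, each past the test. The same genes were also higher with NAC than in KO at 20% O2, by 1.19, 0.59, 0.37, 0.85, 0.63 and 1.08, each past the test. These 10 genes passed in every fit without 1 of the 6 KO libraries.

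The NAC libraries differed from each other in several of these genes. DDIT4 was at 163 CPM in replicate 1 and at 15.2 CPM in replicate 2 with NAC, and the difference from 5% O2 did not pass (1.07, adjusted p = 0.235 by edgeR's quasi-likelihood test). P4HA1 (0.23, adjusted p = 0.333) and SLC2A3 (0.14, adjusted p = 0.364) did not differ past the test between 5% O2 and NAC either. Without NAC replicate 1 all 3 passed, at 3.63, 0.60 and 0.33. In the other direction, 51 of 79 respiratory chain genes and 51 of 85 cytosolic ribosomal protein genes were lower at 5% O2 than with NAC, against 15.5% of all genes. These counts, and the values of single genes against NAC, are not given with the trend removed. Without 1 of the 6 KO libraries these counts ran from 21 to 47 and from 14 to 46, lowest without 5% O2 replicate 2. RPSA (-0.51), PRDX3 (-0.82) and TFRC (-0.84) were examples, and RPSA was not called without that library. LEFTY1 (2.89), NODAL (1.61), MT1G (1.49), KDM4B (1.39) and NES (0.97) were higher at 5% O2 than with NAC. All 9 metallothioneins tested were higher at 5% O2 than with NAC, and from 6 to 8 without 1 library.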

How the data were processed

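Raw gene counts of 8 WA26 libraries were analysed, in 4 groups of 2 taken from the labels. The deposited values are counts: the authors trimmed reads with trim-galore, mapped them to hg38 with hisat2 and assigned them to genes with featureCounts under its defaults, by which strand is ignored and reads with several matches or in overlapping genes are not counted. The annotation is not given in the sources used here. FastQC 0.11.9 is listed in the submitters' processing notes. The labels hold 12 samples, of which 4 WT samples (5% O2 or NAC) were not analysed here, nor were mitochondrially encoded genes.

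edgeR 4.0.16 (R 4.3.3) was used for filtering (filterByExpr, minimum count 10), TMM scaling and quasi-likelihood testing, with 1 term per group, no block and 4 residual degrees of freedom. Adjustment was by Benjamini-Hochberg over 15916 genes. Depth was 31236968 to 41639350 counts a library, the common coefficient of biological variation was 13.7%, and replicates differed by more than sampling noise in each group. The SE is the size of the log2 fold change over the square root of F. List sums are of all list members in the count table, in CPM of total counts without the TMM factors. Those factors were 1.05 in both libraries of KO at 20% O2 and 0.98 in both at 5% O2. Promoter windows and positions are from RefSeq (GRCh38.p14). GC content and length of the canonical GENCODE transcript were known for 94.4% of tested genes, and trends were fitted with mgcv 1.9.3.

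The gene lists and members were chosen with earlier results of these data known. Named genes are UBQLN1 and the 3 markers, the 10 largest changes each way among called genes with an average of at least 1 log2 CPM, no overlap of the groups and under 10% of 31-base words of the transcript found on alternate loci, the called HIF subunits and sensors, up to 6 called members of each other list by smallest p with up to 5 called the other way, and tested paralogs of hypoxia-responsive enzymes. Alternatives were DESeq2 1.42.0, other scalings and filters, a replicate block, a fit of the 4 libraries compared, omission of each library compared, a stricter call, removal of the length and GC trend, other promoter settings and, chosen after seeing the data, removal of genes by alternate-locus sequence in place of annotation and omission of each NAC library. The computations were tested on simulated counts. A few items are not reported here.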

Additional observations from a re-analysis of the deposited data

How the results depend on the processing

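The number of genes called higher and lower moved from 586 and 657 to 1081 and 1063 with DESeq2, 1039 and 1181 with no filter on low counts, 1466 and 1543 with only the 4 libraries compared, 75 and 61 at an adjusted p under 0.01, 260 and 54 with the length and GC trend removed, and 199 and 39 with that trend removed and a replicate block. Leaving out 1 library gave 29 to 238 higher and 5 to 275 lower, with 31 and 5 without KO at 5% O2 replicate 1, 238 and 275 without its replicate 2, 29 and 12 without KO at 20% O2 replicate 1 and 42 and 46 without its replicate 2. All 586 and 657 genes kept their direction in those 4 fits, 27 and 3 kept their call in all 4, and 16 of the 28 called HIF targets and 6 of the 13 called glycolytic enzymes were called in all 4. By fold change and unadjusted p the counts stayed within 1.5 times of 129 higher and 192 lower, except for 110 lower with at least 10 counts in every library. Genes differing between 5% O2 and NAC, 4635, became 2501 with the trend removed, 2243 with the trend removed and a replicate block, 2399 at an adjusted p under 0.01, and 1354 to 5468 without 1 of the 6 KO libraries, the lowest without KO at 5% O2 replicate 2 and the highest without NAC replicate 2. Over all genes, deviations of libraries with the same replicate number were hardly correlated between groups (r from -0.023 to 0.082). With 2 libraries a group this cannot show whether part of the genes were paired by replicate. The replicate block gave 676 higher, 741 lower and 4796 differing from NAC. The sign of near-zero log2 fold changes turned in places. With the trend removed, and then with the block added, TXN became -0.105 and -0.107, ARNT 0.0171 and 0.0169, HIF1A -0.0598 and -0.0589, KDM3B 0.0439 and 0.0459, KDM4A 0.087 and 0.0939, NDUFA4 -0.0639 and -0.0653, PFKFB2 0.034 and 0.0346 and TERT 0.0691 and 0.0763. Against NAC, P4HA1 was -0.0669 and SLC2A3 -0.034 without NAC replicate 2, in ranges of -0.0669 to 0.6002 and -0.034 to 0.333 without 1 library. PLOD3 was -0.00271 with at least 10 counts in every library and -0.000223 with only the 4 libraries compared. Without 1 library, ARNT ranged from -0.0702 to 0.0111, ENO3 from -0.0288 to 0.505, HIF1A from -0.0206 to 0.162, KDM4A from -0.133 to 0.073, PFKFB2 from -0.159 to 0.0293, PLOD3 from -0.0812 to 0.0835 and POU5F1 from -0.0399 to 0.235. TXN was the 1 called gene among these. The causes were not tested, and 2 libraries a group limit what the depth can show.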
